A study of Homo sapiens with 4 samples.

Results

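Myofibroblast-like host parts were the mouse sides of 247 of the 1053 kept barcodes from PANC-1 tumours grown in nude mice. A barcode is the tag that marks RNA captured together, and a mouse part is the mouse-gene side of it. A part was a member when Col1a1, Col1a2 and Col3a1 together took at least 1% of its mouse UMIs (unique molecules counted), C1qa, C1qb and C1qc together took under 0.2%, and Rgs5 had under 3 UMIs. It also had to hold more UMIs of Grem1, C1qtnf3, Col11a1, Col8a1, Lrrc15, Cdh11, Fmod and Col12a1 than of Prg4, Efemp1, Ptx3, Sfrp2, Ly6c1, Chl1, Adamts5 and Dpt. Members were thus chosen by their own mouse UMI counts of these genes, and these values support nothing below. Of 347 fibroblast parts past the first 3 limits, 2 had equal sums and joined neither side. The members were 56 parts in the agrimoniin library, 57 in erlotinib, 63 in combination and 71 in control.

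The study asked how agrimoniin, a plant ellagitannin, and erlotinib, which inhibits the kinase of the EGF receptor, act alone and together on pancreatic tumours and their surroundings. PANC-1, a human pancreatic ductal adenocarcinoma line, was injected under the skin of nude mice, which lack a thymus and so most T cells. Tumours were treated with agrimoniin, erlotinib, or agrimoniin plus erlotinib, or served as control, and gave 1 single-cell RNA library each. Doses, times and mouse ages are not given in the sources used here. With 1 library per group, each difference between treatments compares 2 libraries and has no replicate check. Nothing in the labels says how animals map to libraries.

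The libraries held 202 to 306 barcodes, far below the cell number that the labels name as the target. Every barcode carried UMIs of both species, and human genes took 68.5% to 77.9% of the UMIs of a library. The barcodes are 27 bases long, which is not the layout of the droplet kit that the labels name, so a part need not be 1 cell, and no doublet caller was run. Members held 287847 to 521623 mouse UMIs per library. Their median mouse UMI count per part was 5596 under agrimoniin, 5202 under erlotinib and 3758 under the combination, against 6549 in control. No barcode sequence was shared between libraries (0 shared). Levels are given as UMIs summed over the members of a library per 1e+06 of their mouse UMIs (CPM), and ratios carry exact 95% intervals that cover counting error only. Those intervals understate the spread between libraries. The log2 ratios of all measured genes to control had an SD of 0.42 under agrimoniin, 0.45 under erlotinib and 0.44 under the combination, where counting error alone would give 0.22, 0.22 and 0.23.

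Myofibroblasts are contractile, matrix-laying fibroblasts. In pancreatic and other carcinomas, cancer-associated fibroblasts near tumour cells take on such a state under TGF-beta. They then express Lrrc15, a membrane protein that TGF-beta induces, and smooth muscle actin (Acta2), and secrete collagens and the BMP antagonist gremlin 1 (Grem1). Fibroblasts that face inflammatory cytokines take on another state, rich in chemokines and complement. The split used here follows that contrast.

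The label was set beside marker levels, which are a description, since the same mouse UMIs chose the members. All 12 pan-fibroblast markers were detected in members of every library. The 9 that the rule did not read, among them Pdgfra, Col6a1, Lum and Sparc, had a summed level in CPM of 26451 under agrimoniin, 27753 under erlotinib and 23575 under the combination, against 29272 in control. In the fibroblast parts with the 2 gene sums the other way round, the same 9 summed to 19531 to 24679 CPM. Of the 9, 3 were at least 1.5-fold higher and 3 lower in members than in those parts in all 4 libraries. The 14 macrophage markers, which include the 3 C1q genes that the rule held low, had a summed level in CPM of 339 under agrimoniin, 189 under erlotinib and 111 under the combination, against 119 in control. They summed to 29576 to 32708 CPM in the 509 parts whose C1q genes took at least 0.2% of UMIs (C1q-high parts). The summed markers of monocytes and neutrophils, endothelium, pericytes and smooth muscle, lymphoid and mast cells, and adipocytes stayed at 543 CPM or lower in members of every library. The neutrophil genes S100a8, S100a9 and Ly6g, the endothelial genes Cldn5 and Vwf, and the pericyte gene Kcnj8 were at 0 UMIs in the members of all 4 libraries. Other genes of these lists were detected. Plac8 stood at 260 to 520 CPM in members, where the whole monocyte and neutrophil list summed to 304 to 543 CPM. Endothelial markers summed to 53.2 to 208 CPM, and pericyte and smooth muscle markers to 210 to 433 CPM. Keratinocyte, Schwann cell and skeletal muscle markers summed to at most 24.3 CPM.

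The 6 defining markers chose the members in part, so their levels are a description. Grem1 stood at 497 CPM under agrimoniin, 304 under erlotinib and 1119 under the combination, against 913 CPM in control. The erlotinib library was lowest. From 13.7% to 38.2% of a library's Grem1 UMIs came from its richest part. Lrrc15 stood at 500.4 CPM under agrimoniin, 390.2 under erlotinib and 657 under the combination, against 612 CPM in control. Col11a1, a minor fibrillar collagen, stood at 257 CPM under agrimoniin, 310.4 under erlotinib and 285 under the combination, against 437 CPM in control, and control was highest. Col12a1, a collagen that coats fibrils, stood at 1366 CPM under agrimoniin, 1569.6 under erlotinib and 1879 under the combination, against 2111 CPM in control. Cdh11, the mesenchymal cadherin, stood at 945 CPM under agrimoniin, 1002 under erlotinib and 705 under the combination, against 1043 CPM in control, with combination lowest. Fmod, the fibril-binding proteoglycan fibromodulin, stood at 135 CPM under agrimoniin, 121 under erlotinib and 184 under the combination, against 186 CPM in control. No library was lowest in all 6 markers: erlotinib was lowest for Grem1, Lrrc15 and Fmod, agrimoniin for Col11a1 and Col12a1, and combination for Cdh11.

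Members were not uniform. With every part thinned to 1372 mouse UMIs, the share of members with a Grem1 UMI was 21.4% under agrimoniin, 17.5% under erlotinib and 44.4% under the combination, against 35.2% in control. Before thinning it was 33.9% under agrimoniin, 33.3% under erlotinib and 57.1% under the combination, against 61.97% in control. In C1q-high parts, which should lack Grem1, the thinned share was 0% under agrimoniin, 0% under erlotinib and 0% under the combination, against 1.14% in control, and their median depths were 2887 to 4187 mouse UMIs. The share of thinned members with at least 3 of the 6 markers was 37.5% under agrimoniin, 36.8% under erlotinib and 52.4% under the combination, against 56.3% in control, and before thinning it was 78.6% under agrimoniin, 78.9% under erlotinib and 76.2% under the combination, against 91.5% in control. All 6 markers stood together in 4, 2 and 4 unthinned members of agrimoniin, erlotinib and combination and in 12 of control. In these 4 libraries the share with at least 3 markers was lower in each treated library than in control, and combination was closest to control once depth was levelled. The rule read all 6 markers to choose the members, so these shares are a description and no test of treatment. At least 1 of the contractile genes Acta2, Tagln and Cnn1 was found in a share of thinned members of 71.4% under agrimoniin, 70.2% under erlotinib and 82.5% under the combination, against 81.7% in control. In thinned C1q-high parts the share with an Acta2 UMI was 1.37% under agrimoniin, 1.81% under erlotinib and 0.917% under the combination, against 3.41% in control.

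By share of UMIs most members lay far from the dividing line, a description of the counts that the rule read. In 183 members (74.1%), the 8 myofibroblast genes made up at least 90% of the UMIs of all 16 dividing genes. That held for 60.7% of members under agrimoniin, 68.4% under erlotinib and 79.4% under the combination, against 84.5% in control. The first 8 genes summed to 10 UMIs or more in 200 of the 247 members. At 50% to 60% lay 10 members, and 7 fibroblast parts lay just outside, at 40% to 50%. The members nearest the line had 8 UMIs of the first 8 genes and 7 of the second 8, or 12 and 10. The nearest parts outside had 5 and 5, or 6 and 7. Of otherwise fitting parts, 2 missed the collagen limit, 7 the C1q limit and 19 the Rgs5 limit.

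**Figure D1:**
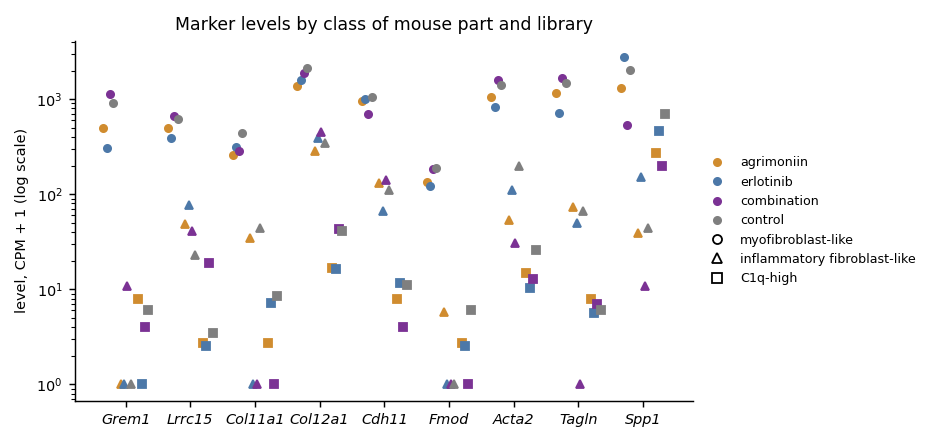
Level of 6 marker genes and of Acta2, Tagln and Spp1 (CPM + 1, log axis) in myofibroblast-like (circles), inflammatory fibroblast-like (triangles) and C1q-high parts (squares) of the 4 libraries (colours), 1 value per library with no error bars. For Grem1, members range from 304 to 1119 CPM, and inflammatory fibroblast-like parts are at 0 CPM in 3 of 4 libraries.

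Inflammatory fibroblast-like parts, which pass the same limits with the 2 gene sums the other way round, numbered 98 and are the nearest comparison. The dividing line was drawn on mouse genes of these parts, so the differences are described without a test. Inflammatory parts held 209448 mouse UMIs under agrimoniin, 184269 under erlotinib and 100799 under the combination, against 46040 from 9 parts in control. Low levels in them rest on few UMIs: in control, 7 UMIs of Thbs2 made 152 CPM. Of 1689 measured genes, 142 (8.41%) were at least 1.5-fold higher in members in all 4 libraries and 128 (7.58%) were lower. The contractile genes stood out by count, with 9 of 10 measured genes higher in all 4 libraries and a median log2 ratio of 2.12, against 0.04 over all genes. Tagln, an actin-binding protein of smooth muscle, was at 706 to 1650.2 CPM in members and 0 to 71.6 CPM in inflammatory fibroblast-like parts. Acta2 was at 825 to 1605 CPM in members and 29.8 to 195 CPM in inflammatory fibroblast-like parts. Members and inflammatory parts did not overlap across libraries for either gene, which is a description only. The share of all measured genes without such overlap is not given here.

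The 20 genes named as highest in members included 3 that encode ligands. Inhba, which encodes the activin A subunit of the TGF-beta family, was at 1191 to 1838 CPM in members and 21.7 to 143 CPM in inflammatory fibroblast-like parts. Wnt5a, a non-canonical Wnt ligand, was at 184 to 311 CPM in members and 4.77 to 43.4 CPM in inflammatory fibroblast-like parts. Pdgfa, a platelet-derived growth factor chain, was at 190.2 to 234 CPM in members and 14.3 to 29.8 CPM in inflammatory fibroblast-like parts. For each ligand the lowest member level lay above the highest inflammatory level. The genes were picked by this same contrast, so the lack of overlap adds no support. Dusp6, the ERK phosphatase that ERK signalling itself induces, was at 382 to 500.4 CPM in members and 0 to 89.3 CPM in inflammatory fibroblast-like parts, and Igfbp3, a carrier of insulin-like growth factors, was at 307 to 597 CPM in members and 0 to 59.5 CPM in inflammatory fibroblast-like parts.

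Matrix and adhesion genes made up most of the other names. Spp1 (osteopontin), a matrix phosphoprotein, was at 528 to 2767 CPM in members and 9.92 to 152 CPM in inflammatory fibroblast-like parts. Tnc (tenascin C) was at 2320.3 to 5111 CPM in members and 337 to 841 CPM in inflammatory fibroblast-like parts, and the membrane-bound collagenase Mmp14 at 1296 to 1938 CPM in members and 278 to 413 CPM in inflammatory fibroblast-like parts. The others named as higher included Spon1, Sparcl1, Serpine2, Rgs16, Nrep, Col15a1, Hs6st2, Cnn2 and Kif26b. Of 9 measured collagen genes outside the rule, 6 were higher in members in all 4 libraries and 1, Col14a1, was lower.

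Matrix, complement and surface genes were among the 10 named as lower in members. Dcn (decorin), a proteoglycan that binds collagen and TGF-beta, was at 148 to 158 CPM in members and 1601 to 3367 CPM in inflammatory fibroblast-like parts. The complement gene C3 was at 0 to 23.6 CPM in members and 248 to 847 CPM in inflammatory fibroblast-like parts. Cd34, a surface marker of adventitial fibroblasts, was at 1.92 to 23.4 CPM in members and 268 to 535 CPM in inflammatory fibroblast-like parts, and Mmp3 (stromelysin) at 0 to 43.9 CPM in members and 304 to 893 CPM in inflammatory fibroblast-like parts. Tnxb, Lgi2, Ackr3, Gda, Ifi205 and Ogn completed the named genes. Of 15 measured chemokine and cytokine genes, 7 were lower in members in all 4 libraries and 0 were higher, and of 10 universal fibroblast genes 7 were lower and 1 was higher.

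Members made up 18.9% (14.6 to 23.8) of kept mouse parts under agrimoniin, 18.7% (14.5 to 23.5) under erlotinib and 25.3% (20.02 to 31.2) under the combination, against 35.1% (28.6 to 42.2) in control, with exact Clopper-Pearson 95% intervals. These intervals cover the counting of parts within 1 library and do not compare treatments. Among parts past the collagen, C1q and Rgs5 limits, members were 58.9% (48.4 to 68.9) under agrimoniin, 67.1% (56.02 to 76.9) under erlotinib and 72.4% (61.8 to 81.5) under the combination, against 88.8% (79.7 to 94.7) in control. Inflammatory fibroblast-like parts numbered 37, 28 and 24 in the treated libraries in that order and 9 in control. The 8 myofibroblast genes that draw the line also differed in level between libraries. Their summed level in members, in CPM, was 6677 under agrimoniin, 6104 under erlotinib and 7858 under the combination, against 9528 in control, so shares and levels cannot be told apart by this count. The lowest mouse UMI total of a kept part was 2086 under agrimoniin, 1567 under erlotinib and 1372 under the combination, against 2590 in control. After thinning to 1372 mouse UMIs with the rule applied anew, the shares of kept parts were 18.2% under agrimoniin, 18.4% under erlotinib and 25.3% under the combination, against 36.1% in control.

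**Figure D2:**
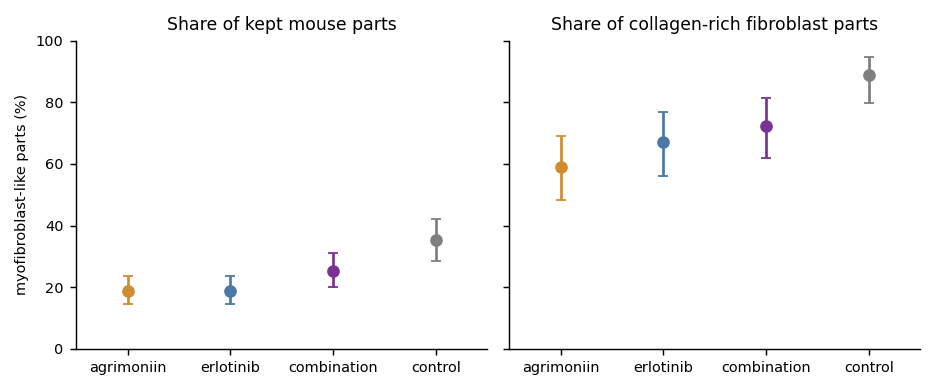
Share of myofibroblast-like parts in each library, of all kept mouse parts (left) and of parts past the collagen, C1q and Rgs5 limits (right), with exact 95% intervals that cover counting error only. The 3 treated libraries lie below control in both panels.

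In agrimoniin against control, most measured cytokine and chemokine genes were higher, while the contractile, basement membrane and collagen processing lists summed lower. Among genes with a mean of at least 100 CPM, 126 of 1755 (7.18%) were over 1.5-fold higher and 109 of 1755 (6.21%) over 1.5-fold lower, on the scale of log2(CPM + 10). All 3 comparisons with control use the same control library. What sets that library apart would therefore be seen in each, and their values stand side by side below without a test of their likeness.

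Of the cytokine list, 7 of 11 measured genes were past 1.5-fold higher in agrimoniin and 0 lower, with a median log2 ratio of 0.82 against -0.03 over all genes. In erlotinib 5 of 10 were higher and 0 lower, and in combination 5 of 9 were higher and 1, Cxcl14, was lower. The list summed to 9077 CPM under agrimoniin, 7059 under erlotinib and 7341 under the combination, against 5312 CPM in control. Lif, the leukaemia inhibitory factor of the IL-6 family, stood at 219 CPM under agrimoniin, 76.9 under erlotinib and 83.4 under the combination, against 15.3 CPM in control, and was 14.3-fold higher (6.901 to 34.4) in agrimoniin than in control. Ccl2, the monocyte chemoattractant, stood at 1486 CPM under agrimoniin, 1067 under erlotinib and 1296 under the combination, against 688 CPM in control, a ratio of 2.16 (1.88 to 2.48) for agrimoniin, 1.55 (1.34 to 1.799) for erlotinib and 1.88 (1.62 to 2.18) for combination. Csf1, the macrophage growth factor, stood at 392 CPM under agrimoniin, 263 under erlotinib and 264 under the combination, against 161 CPM in control. For these 3 ligands all treated libraries lay above control, and agrimoniin was highest. Cxcl1, a neutrophil chemokine, stood at 1563 CPM under agrimoniin, 1569.6 under erlotinib and 1480.0 under the combination, against 972 CPM in control. Il6 stood at 158 CPM under agrimoniin, 47.3 under erlotinib and 129 under the combination, against 69.02 CPM in control, with an erlotinib ratio of 0.685 (0.355 to 1.27) that holds 1. Without the richest parts the combination ratio was 2.304 for Lif, against 5.44 with them, and 1.01 for Il6, against 1.86.

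Ligands of that list were also abundant in inflammatory fibroblast-like parts, where Ccl2 stood at 4837, 3593, 5546 and 1781 CPM in agrimoniin, erlotinib, combination and control in that order. Members whose first gene sum was more than 2 times the second gave summed list ratios of 1.52 for agrimoniin, 1.36 for erlotinib and 1.34 for combination. Over all members these were 1.71 (1.62 to 1.799), 1.33 (1.26 to 1.404) and 1.38 (1.31 to 1.46). Markers of some other cell types also summed higher in agrimoniin members than in control members, while those of monocytes and neutrophils summed lower. These are sums over members and not a comparison part by part. Macrophage markers summed to 339 CPM in agrimoniin and 119 CPM in control, endothelial markers to 208 and 57.5 CPM, and lymphoid and mast cell markers to 90.7 and 24.9 CPM. Their ratios of agrimoniin to control were 2.86 (2.08 to 3.95), 3.61 (2.33 to 5.74) and 3.64 (1.85 to 7.58) in that order, and the endothelial log2 ratio of 1.85 was 0.36 without the richest part of each library. Their part in the cytokine levels was not tested. Immediate early genes, which tissue digestion also switches on, were counted too: 5 of 20 measured genes of the heat shock and immediate early list were past 1.5-fold higher in agrimoniin and 1 lower, 2 of 20 and 0 in erlotinib, and 5 of 20 and 2 in combination. Fosb stood at 4132 CPM under agrimoniin, 2687 under erlotinib and 3877 under the combination, against 2619 CPM in control, and Junb stood at 904 CPM under agrimoniin, 872 under erlotinib and 1153 under the combination, against 558 CPM in control. The part of these genes was not tested either.

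The other genes named as higher in agrimoniin were Egr3, Enc1, Tiparp, Uap1, Adamts1, B4galt5, F3, Cxcl10 and Fabp4. Egr3, an immediate early transcription factor, was 3.68-fold higher (2.69 to 5.09), and F3 (tissue factor), the trigger of clotting, was 3.92-fold higher (2.504 to 6.31). Adamts1, a protease that cleaves versican, was 2.67-fold higher (2.11 to 3.4). Without the part richest in the gene in each library these 3 ratios were 3.78, 3.31 and 2.85. With the stricter dividing line between the fibroblast groups (first sum more than 2 times the second) the log2 ratio of F3 was 0.96, against 1.79 as reported. For Fabp4, a fatty acid carrier of fat cells, 1 part weighed more: 85.1% of its agrimoniin UMIs came from 1 part, and its ratio was 3.85 without the richest parts and 6.39 with them. The adipocyte markers as a whole summed to 239.9 CPM in agrimoniin members, against 30.7 CPM in control members, and their part in this was not tested.

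Sparcl1 led the genes lower in agrimoniin. It encodes a matrix glycoprotein related to SPARC and stood at 117 CPM under agrimoniin, 759.7 under erlotinib and 111 under the combination, against 1041 CPM in control. It was 8.89-fold lower (6.45 to 12.6) in agrimoniin and 9.36-fold lower (6.55 to 13.8) in combination, while the erlotinib ratio was 0.7298 (0.627 to 0.848). The share of members with a Sparcl1 UMI was 25% under agrimoniin, 56.1% under erlotinib and 20.6% under the combination, against 76.1% in control, and after thinning 12.5% under agrimoniin, 40.4% under erlotinib and 11.1% under the combination, against 45.1% in control. In thinned C1q-high parts it was 0% under agrimoniin, 1.205% under erlotinib and 0% under the combination, against 3.41% in control. The libraries thus fell into a low pair, agrimoniin and combination, and a high pair, erlotinib and control. Vcan (versican), a large proteoglycan, was 2.21-fold lower (1.69 to 2.92) in agrimoniin at 208 CPM against 458 CPM in control. Eln (elastin) was 3.21-fold lower (2.12 to 5.002), and Ero1l, an oxidase of the endoplasmic reticulum that hypoxia induces, was 2.24-fold lower (1.67 to 3.05). Ecrg4, Igf2r, Aamp, Ccdc88a, Dnajc10 and Sema7a completed the named lower genes.

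Matrix genes differed by gene, and the collagen list as a whole was close to control in agrimoniin and combination. The fibrillar collagen list summed to 72387 CPM under agrimoniin, 97832 under erlotinib and 77263 under the combination, against 74391 CPM in control, a ratio of 0.973 (0.958 to 0.989) for agrimoniin, 1.32 (1.296 to 1.33) for erlotinib and 1.04 (1.02 to 1.06) for combination. Col1a1, the main chain of type I collagen, stood at 39679.9 CPM under agrimoniin, 53532 under erlotinib and 44548 under the combination, against 35641 CPM in control, highest in erlotinib. The rule itself reads this gene. Col6a3, a chain of the microfibrillar type VI collagen, stood at 1249 CPM under agrimoniin, 1717 under erlotinib and 1525 under the combination, against 2220.0 CPM in control, lower in all treated libraries. Col15a1, a collagen near basement membranes, stood at 1925 CPM under agrimoniin, 1791 under erlotinib and 486 under the combination, against 1221 CPM in control. It was 2.51-fold lower (2.09 to 3.04) in combination and 1.58-fold higher (1.41 to 1.76) in agrimoniin. Basement membrane genes summed to 3327 CPM under agrimoniin, 3435 under erlotinib and 3953 under the combination, against 4829 CPM in control, with 2 of 7, 1 of 7 and 1 of 7 measured genes past 1.5-fold lower in that order and 0 higher. Nid1 (nidogen), which links laminin to collagen IV, stood at 691 CPM under agrimoniin, 748 under erlotinib and 1167 under the combination, against 1242 CPM in control, and in combination it was within counting error of control.

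Of the collagen processing list, 4 of 18 measured genes were past 1.5-fold lower in agrimoniin and 0 higher. In erlotinib and in combination 1 was higher and 1 lower. Lox, the lysyl oxidase that cross-links collagen and elastin, stood at 1484 CPM under agrimoniin, 1510.5 under erlotinib and 1709 under the combination, against 2548 CPM in control. It was 1.72-fold lower (1.55 to 1.91) in agrimoniin, 1.69-fold lower (1.52 to 1.87) in erlotinib and 1.49-fold lower (1.34 to 1.66) in combination. Loxl2, a related oxidase, stood at 740.3 CPM under agrimoniin, 1129 under erlotinib and 1004 under the combination, against 1315 CPM in control. Of the matricellular and adhesive glycoprotein list, 5 of 14, 3 of 15 and 3 of 16 measured genes were past 1.5-fold lower in agrimoniin, erlotinib and combination, and 1 was higher in each. Tnc, a matrix protein of wound and tumour stroma, stood at 2320.3 CPM under agrimoniin, 5111 under erlotinib and 2387 under the combination, against 3819 CPM in control, with erlotinib highest. Postn (periostin), a matricellular protein of myofibroblasts, stood at 1434 CPM under agrimoniin, 1147 under erlotinib and 2018 under the combination, against 2479 CPM in control. Lox, Loxl2 and Postn were thus below control in every treated library. Plod3, a collagen lysyl hydroxylase, was above control in every treated library at 108 CPM under agrimoniin, 154 under erlotinib and 90.3 under the combination, against 49.8 CPM in control, and was 3.08-fold higher (1.89 to 5.14) in erlotinib.

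**Figure D3:**
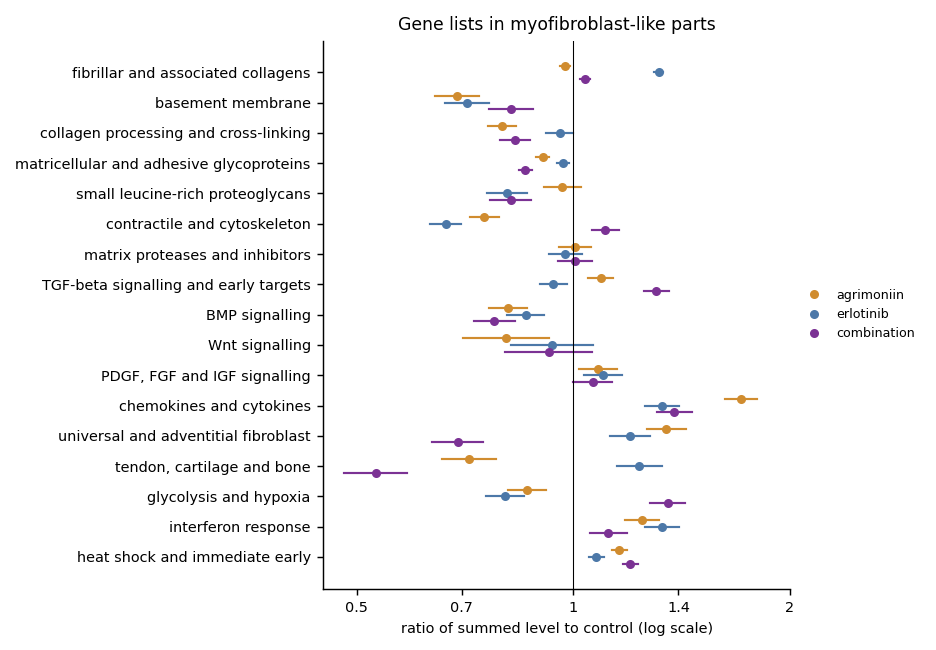
Ratio of the summed level of each gene list in myofibroblast-like parts to that in control (log axis), for agrimoniin, erlotinib and combination, with exact 95% intervals that cover counting error only; the vertical line marks a ratio of 1. The cytokine list lies above 1 in all 3 treated libraries, and the contractile and glycolysis lists lie below 1 in the single-drug libraries and above 1 in combination.

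In erlotinib against control, most measured contractile genes were lower, while Cxcl9, Cxcl10 and type I collagen were higher. Here 108 of 1729 (6.25%) genes were past 1.5-fold higher and 163 of 1729 (9.43%) past 1.5-fold lower. With median-of-ratios size factors in place of total UMIs the split was 137 higher and 125 lower. Of the contractile list, 6 of 11 measured genes were lower and 0 higher, with a median log2 ratio of -0.69 against -0.05 over all genes. In agrimoniin 2 of 11 were lower and 0 higher, and in combination 0 were lower and 2 of 12 were higher. The list summed to 7879.8 CPM under agrimoniin, 6964 under erlotinib and 11599.9 under the combination, against 10479 CPM in control. Acta2 stood at 1045 CPM under agrimoniin, 825 under erlotinib and 1605 under the combination, against 1413 CPM in control, and was 1.71-fold lower (1.49 to 1.97) in erlotinib. Tagln stood at 1167 CPM under agrimoniin, 706 under erlotinib and 1650.2 under the combination, against 1461 CPM in control, and was 2.07-fold lower (1.79 to 2.401) in erlotinib. Tpm1 (tropomyosin) stood at 936 CPM under agrimoniin, 907 under erlotinib and 1859 under the combination, against 1468 CPM in control, and Flna (filamin A), the actin cross-linker, at 322 CPM under agrimoniin, 322 under erlotinib and 504 under the combination, against 596 CPM in control. Erlotinib was thus lowest for Acta2, Tagln and Tpm1, agrimoniin lay between it and control, and combination lay above control.

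These differences stood beside those of the pericyte and smooth muscle markers, which summed to 209.9 CPM in erlotinib members against 433 CPM in control members, and to 369 CPM in agrimoniin and 368 CPM in combination members. Of those 10 markers, Rgs5, Kcnj8, Myh11 and Des were at 0 in erlotinib members, and Kcnj8 and Myh11 in control members. Their part in the contractile difference was not tested.

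Mgp (matrix Gla protein), an inhibitor of calcification and of BMP, stood at 304 CPM under agrimoniin, 79.8 under erlotinib and 93.8 under the combination, against 466 CPM in control, and was 5.84-fold lower (3.91 to 9.04) in erlotinib. Without the richest part in each library its erlotinib ratio was 0.127. Eln was 5.23-fold lower (3.15 to 9.23) at 50.3 CPM against 263 CPM in control. Thbs2 (thrombospondin 2), an inhibitor of vessel growth, stood at 1323 CPM under agrimoniin, 668 under erlotinib and 1761 under the combination, against 1745 CPM in control, lowest in erlotinib, with a combination ratio of 1.01 (0.904 to 1.13). Pappa, a protease that frees insulin-like growth factors, was 3.85-fold lower (2.21 to 7.16). Grem1 was 2.997-fold lower (2.42 to 3.75), which is a description of a gene of the rule. Fhl1, Fabp5, Ero1l, Lgals3 and Angptl2 completed the named lower genes.

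Cxcl9 and Cxcl10, chemokines that interferon-gamma induces, led the genes higher in erlotinib. Cxcl9 stood at 108 CPM under agrimoniin, 606 under erlotinib and 38.2 under the combination, against 99.7 CPM in control, and was 6.08-fold higher (4.46 to 8.41) in erlotinib, where 39.02% of its UMIs came from 1 part. Its ratio without the richest parts was 10.4. It was found in 24.6% of erlotinib members and 5.63% of control members. Cxcl10 stood at 316 CPM under agrimoniin, 375 under erlotinib and 441 under the combination, against 69.02 CPM in control, higher in all treated libraries. On the log2(CPM + 10) scale its erlotinib ratio was 1.64 with equal weight per part, against 2.29 as reported, and its combination ratio was 1.88 with a mitochondrial limit of 10%, against 2.51. In agrimoniin 60.2% of its UMIs came from 1 part, and the ratio without the richest parts was 2.56. The interferon list, which does not hold these 2 chemokines, summed to 6867 CPM under agrimoniin, 7319 under erlotinib and 6166 under the combination, against 5514 CPM in control, with 3 of 7 measured genes past 1.5-fold higher in erlotinib. H2-D1, an MHC class I gene, stood at 2059.9 CPM under agrimoniin, 2276 under erlotinib and 1889.9 under the combination, against 1432 CPM in control. Tuft1, Apod, Dennd5b, Pde4d, Plod3, Meg3, Irgm1 and F3 were the other named higher genes.

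In combination against control, 134 of 1747 (7.67%) genes were past 1.5-fold higher and 107 of 1747 (6.12%) past 1.5-fold lower, and with median-of-ratios size factors 156 and 78. Ndrg1, a stress gene that hypoxia induces, the early TGF-beta target Smad7, and the proteases Mmp10, Mmp13 and Plau were higher, and Sparcl1, Mgp, Spp1 and Col15a1 were lower. Of the glycolysis and hypoxia list, 4 of 13 measured genes were past 1.5-fold higher and 0 lower, with a median log2 ratio of 0.23 against -0.03 over all genes. In agrimoniin 4 of 13 were lower and 1 higher, and in erlotinib 4 of 13 were lower and 0 higher. The list summed to 5044 CPM under agrimoniin, 4703 under erlotinib and 7910.4 under the combination, against 5851 CPM in control. Ndrg1 stood at 535 CPM under agrimoniin, 396 under erlotinib and 1188 under the combination, against 452 CPM in control, and was 2.63-fold higher (2.22 to 3.11) in combination. Slc2a1, the glucose transporter GLUT1, stood at 111 CPM under agrimoniin, 109 under erlotinib and 379 under the combination, against 176 CPM in control. Vegfa, the vascular growth factor, stood at 989 CPM under agrimoniin, 1014 under erlotinib and 1435 under the combination, against 807 CPM in control, and Bnip3, a mitophagy receptor, at 202 CPM under agrimoniin, 207 under erlotinib and 497 under the combination, against 397 CPM in control. Combination was the highest library for each of these 4 genes. Pgam1, a glycolytic enzyme, stood at 479.9 CPM under agrimoniin, 467 under erlotinib and 726 under the combination, against 734 CPM in control, so that control and combination were close and the single drugs lower. Lactate dehydrogenase (Ldha) stood at 217 CPM under agrimoniin, 260.1 under erlotinib and 337 under the combination, against 305 CPM in control, with a combination ratio of 1.11 (0.8498 to 1.43) that holds 1.

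Of the TGF-beta list, 3 of 10 measured genes were past 1.5-fold higher in combination and 1 lower, against 2 of 10 higher and 0 lower in agrimoniin, and 0 higher and 1 lower in erlotinib. Inhba stood at 1285 CPM under agrimoniin, 1191 under erlotinib and 1838 under the combination, against 1275 CPM in control, and the inhibitory Smad7, an early target, at 529.6 CPM under agrimoniin, 482 under erlotinib and 587 under the combination, against 374 CPM in control. Ccn2, a matricellular target of TGF-beta and YAP, stood at 2516 CPM under agrimoniin, 1756 under erlotinib and 2623 under the combination, against 2718 CPM in control, with combination not detectably different from control. The ligand Tgfb2 stood at 483 CPM under agrimoniin, 325 under erlotinib and 375 under the combination, against 255 CPM in control, highest in agrimoniin. The BMP list had 0 measured members past 1.5-fold in agrimoniin and combination and 2 of 8 lower in erlotinib, Id3, a BMP target, among them. That list does not hold the BMP antagonist Grem1 or the BMP inhibitor Mgp. Both were named as lower in erlotinib and were also below control in agrimoniin, and Mgp was named as lower in combination.

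Proteases diverged within their family. Mmp10 (stromelysin 2) stood at 11.7 CPM under agrimoniin, 11.8 under erlotinib and 278 under the combination, against 28.8 CPM in control, and was 9.66-fold higher (5.52 to 18.1) in combination, where 14.3% of members had a UMI. Mmp13, a collagenase, stood at 184 CPM under agrimoniin, 82.8 under erlotinib and 409.9 under the combination, against 99.7 CPM in control. Without the richest parts the combination ratios were 11.5 for Mmp10 and 3.82 for Mmp13. On the log2(CPM + 10) scale the Mmp13 ratio of combination to control was 1.43 with equal weight per part, against 1.94 as reported. Plau (urokinase), which activates plasmin, stood at 553 CPM under agrimoniin, 387 under erlotinib and 789 under the combination, against 309 CPM in control. Of 13 measured protease and inhibitor genes in combination, 4 were past 1.5-fold higher and 3 lower. Combination was highest for Mmp10, Mmp13 and Plau, and it was lowest for Timp1, an inhibitor of metalloproteases, at 553 CPM under agrimoniin, 769 under erlotinib and 274 under the combination, against 558 CPM in control. Mmp2 (gelatinase A) was at 649.6 CPM under agrimoniin, 621 under erlotinib and 618 under the combination, against 625 CPM in control, and its 3 ratios all held 1.

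Spp1, which marks members against inflammatory parts, stood at 1319.6 CPM under agrimoniin, 2767 under erlotinib and 528 under the combination, against 2017 CPM in control, and was 3.82-fold lower (3.22 to 4.56) in combination. Cxcl14, a chemokine of fibroblasts, was 2.32-fold lower (1.88 to 2.88) at 379 CPM against 878 CPM in control. Emp1, an epithelial membrane protein gene, was 2.84-fold lower (2.45 to 3.298), and Mgp was 4.97-fold lower (3.33 to 7.69), a ratio of 0.201 that was 0.133 without the richest parts. Dad1, Adamts12, Cilp and Pkd2 were also named as lower, each from 2.21-fold to 2.56-fold. Tnn (tenascin N) was 4.97-fold higher (3.16 to 8.03) at 257 CPM against 51.8 CPM in control. Dusp4, Egr3, Hivep2 and F3 were higher too. Ifit1, an interferon-induced gene, was 5.99-fold higher (4.02 to 9.12), but 69.7% of its combination UMIs came from 1 part, and the ratio was 2.21 without the richest parts.

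**Figure D4:**
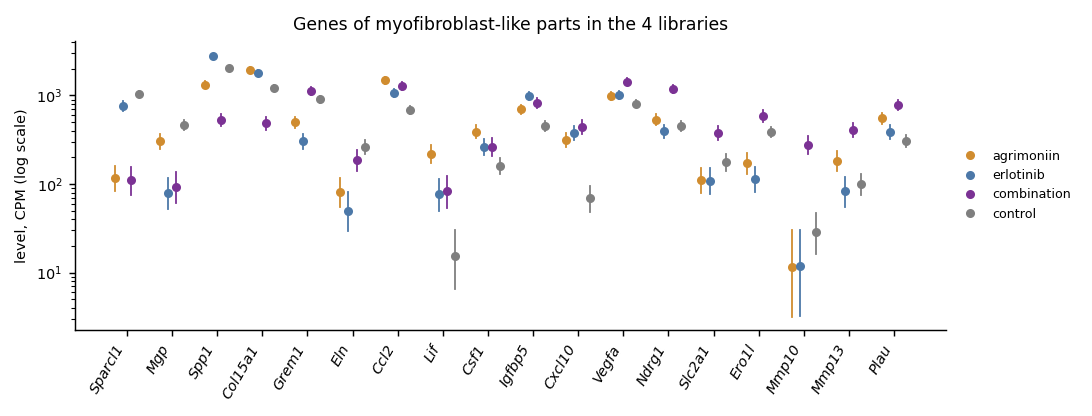
Level of 18 genes (CPM, log axis) in myofibroblast-like parts of the 4 libraries, with exact Poisson 95% intervals that cover counting error only. Sparcl1 is low in agrimoniin and combination, Ndrg1, Slc2a1 and Mmp10 are highest in combination, and Ccl2, Lif and Csf1 are above control in every treated library.

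Set against each single drug, combination had 119 of 1735 (6.86%) genes past 1.5-fold higher and 133 of 1735 (7.67%) lower than agrimoniin. Against erlotinib it had 189 of 1723 (11.0%) higher and 132 of 1723 (7.66%) lower. Mmp10, Tnn, Fabp5 and Ero1l were named as higher in combination than in either single drug. Fabp5, an epidermal fatty acid carrier, stood at 132 CPM under agrimoniin, 59.1 under erlotinib and 538 under the combination, against 220.5 CPM in control, and was 4.09-fold higher (2.92 to 5.83) against agrimoniin and 9.11-fold higher (5.699 to 15.3) against erlotinib, the second being 14.7 without the richest parts. On the log2(CPM + 10) scale the Fabp5 ratio to erlotinib was 2.99, and it was 2.15 with equal weight per part and 3.79 with a mitochondrial limit of 10%. Ero1l stood at 173 CPM under agrimoniin, 115 under erlotinib and 594 under the combination, against 387 CPM in control. For Fabp5 and Ero1l the single drugs lay below control and combination above it. Slc2a1 was 3.41-fold higher (2.33 to 5.07) than in agrimoniin. The contractile list had a summed ratio of 1.47 (1.399 to 1.55) against agrimoniin and 1.67 (1.58 to 1.76) against erlotinib, and the glycolysis and hypoxia list of 1.57 (1.47 to 1.67) and 1.68 (1.58 to 1.79). Both lists thus summed higher in combination than in either single-drug library, while no test of an interaction between the drugs was possible with 1 library each. Col15a1, Fabp4, Mgp, Tiparp and Cygb were named as lower against agrimoniin (the Fabp4 ratio was 0.248, and 0.931 without the richest parts), and Cxcl9, Sparcl1, Tuft1, Spp1 and Ak1 as lower against erlotinib. Col15a1 was 3.96-fold lower (3.29 to 4.79) than in agrimoniin, and Spp1 was 5.24-fold lower (4.41 to 6.26) than in erlotinib.

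The spread among members was wide beside the differences between libraries. The median share of a member's mouse UMIs taken by contractile genes was 0.574% under agrimoniin, 0.615% under erlotinib and 0.961% under the combination, against 0.944% in control. The interquartile range was 0.4202% to 0.904% in erlotinib members and 0.605% to 1.32% in control members. For cytokine genes the median share was 0.536% under agrimoniin, 0.479% under erlotinib and 0.439% under the combination, against 0.328% in control. The ranges of all 4 libraries overlapped for both lists.

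**Figure D5:**
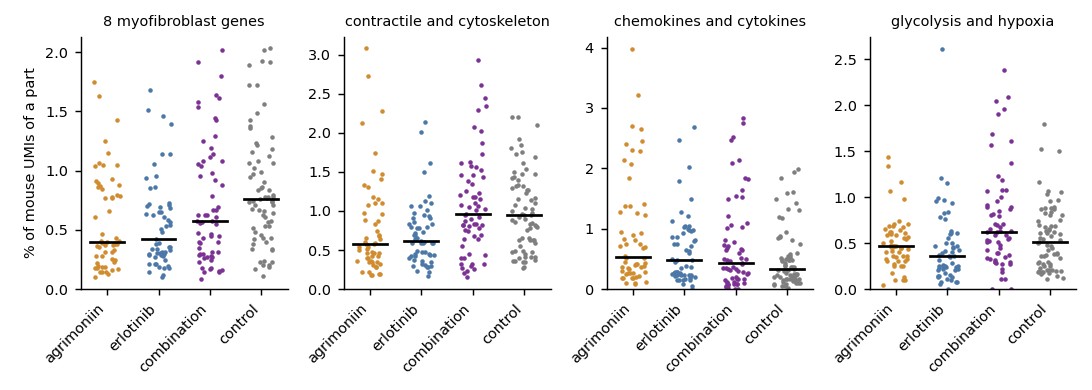
Share of a member's mouse UMIs (percent) taken by the 8 myofibroblast genes of the rule and by 3 gene lists, with 1 point per myofibroblast-like part and the median as a bar, for the 4 libraries. The points overlap between libraries in every panel, and the cytokine median is lowest in control.

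Few members held Mki67 or Top2a, which dividing cells express. The share of thinned members with a UMI of either gene was 7.14% under agrimoniin, 12.3% under erlotinib and 7.94% under the combination, against 2.82% in control, and before thinning 14.3% under agrimoniin, 19.3% under erlotinib and 9.52% under the combination, against 4.23% in control. The thinned shares rest on 4 parts under agrimoniin, 7 under erlotinib and 5 under the combination, against 2 in control. The exact 95% intervals of the thinned shares of the treated libraries all overlapped that of control. Such intervals count parts within 1 library and do not compare treatments, so their overlap does not show that the libraries are alike. Of the Wnt list, 1 of 3 measured genes was lower in agrimoniin, which was the ligand Wnt5a. In erlotinib 1 of 4 was higher, the receptor Fzd2, and 1 lower, Dkk3, and in combination 0 of 4 passed 1.5-fold. Among growth factor genes Igfbp5, a carrier of insulin-like growth factors in matrix, stood at 696 CPM under agrimoniin, 981 under erlotinib and 827 under the combination, against 449 CPM in control, higher in every treated library, with an erlotinib ratio of 2.19 (1.85 to 2.597). The growth factor receptors Pdgfra and Pdgfrb had ratios from 0.689 to 0.906, and of the 6 intervals only that of Pdgfrb in combination left out 1.

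The human RNA of the same barcodes was not read by the rule and could be tested. Human UMIs were summed per library and class of mouse part, and compared with edgeR's quasi-likelihood test with the library as a block (n = 4 libraries, 9655 genes, Benjamini-Hochberg adjustment). Beside myofibroblast-like parts, 2 human genes (0.0207%) fell and 0 (0%) rose against those beside inflammatory fibroblast-like parts. An unadjusted edgeR p under 0.05 was held by 526 genes (5.45%), about the share that this threshold alone would give. DESeq2 called 1 gene in each direction. TGFBI, a matrix protein gene that TGF-beta induces, had a log2 fold change of -0.62 (SE 0.10, adjusted p = 0.0109) and was lower in 4 of 4 libraries. Its level in CPM beside members was 519 under agrimoniin, 435 under erlotinib and 383 under the combination, against 500.4 in control. Beside inflammatory parts it was 732 under agrimoniin, 712 under erlotinib and 529 under the combination, against 881 in control, and the 2 ranges did not overlap. SERPINA3, an acute-phase protease inhibitor gene, had -3.83 (SE 0.68, adjusted p = 0.0223), but was lower in 3 of 4 libraries and rested on combination, at 15.5 CPM beside members and 344 CPM beside inflammatory parts. The adjusted p of SERPINA3 was 0.8598 without the combination library and 0.9998 with DESeq2. Without the erlotinib library that of TGFBI was 0.342. The TGFBI adjusted p was also 0.0601 without control and 0.527 without the library block. It was 0.0563 with the stricter dividing line and 0.113 with only the 2 classes in the fit. Without agrimoniin it was 0.0295, without combination 0.0160, and with DESeq2 1.2e-05.

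Against the human RNA beside C1q-high parts, 456 genes (4.72%) had an unadjusted edgeR p under 0.05, again about the share of the threshold alone. DESeq2 called 0 genes. After adjustment of the edgeR test 1 gene (0.0104%) fell and 0 (0%) rose. It was HMOX1, the haem oxygenase gene, with a log2 fold change of -1.09 (SE 0.19, adjusted p = 0.0446), lower in 4 of 4 libraries. Its level in CPM beside members was 28.6 under agrimoniin, 20.2 under erlotinib and 19.3 under the combination, against 57.7 in control. Beside C1q-high parts it was 60.8 under agrimoniin, 46.5 under erlotinib and 33.3 under the combination, against 135 in control. Its adjusted p ran from 0.0182 to 0.473 with 1 library left out. A human and a mouse gene of like sequence can share reads. Mouse Hmox1 was at 105, 209.9, 132 and 169 CPM in members of agrimoniin, erlotinib, combination and control in that order, and at 316, 396, 363 and 233 CPM in C1q-high parts. Mouse Serpina3n was at 152, 73.9, 125 and 119 CPM in members and at 783, 597, 575 and 499.6 CPM in inflammatory parts. Both mouse genes were lower in members in all 4 libraries, and their part in these calls was not tested. Mouse Tgfbi was at 20.5, 59.1, 34.7 and 49.8 CPM in members and 33.4, 16.3, 19.8 and 21.7 CPM in inflammatory parts, higher in members in 3 of 4 libraries.

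The remaining lists gave smaller or mixed counts. The universal and adventitial fibroblast list had 3 of 6 measured genes past 1.5-fold higher in agrimoniin, 2 of 6 in erlotinib and 0 in combination, where 1 was lower. Has1, a hyaluronan synthase of that list, stood at 184 CPM under agrimoniin, 168 under erlotinib and 97.3 under the combination, against 72.8 CPM in control, and Ly6a, a surface marker of progenitor-like fibroblasts, at 503 CPM under agrimoniin, 633 under erlotinib and 379 under the combination, against 329.7 CPM in control. Both genes were also lower in members than in inflammatory parts in all 4 libraries, so that they mark the other side of the dividing line. The tendon, cartilage and bone list had 1 measured gene of 5 past 1.5-fold higher in each treated library, and 2, 0 and 2 lower in agrimoniin, erlotinib and combination. Of 3 measured small leucine-rich proteoglycans, 1 was lower in erlotinib, Aspn, at 641 CPM against 1026 CPM in control. Of the cell cycle list 2 or 3 genes were measured, and 1 was higher, in combination. The whole list summed to 799 CPM under agrimoniin, 999 under erlotinib and 834 under the combination, against 663 CPM in control. Its erlotinib ratio of 1.51 (1.29 to 1.75) was 1.12 with the stricter dividing line. The combination ratio of 1.26 (1.06 to 1.49) was 1.02 with a mitochondrial limit of 10%.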

How the data were processed

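Single-cell libraries of 4 xenografts were used, 1 per group. The authors deposited raw UMI counts per gene and barcode, with human and mouse genes in 1 matrix, made with Cell Ranger and the builds hg38 and mm10 per the submitters' processing notes. Its version is not given in the sources. Groups follow the sample labels, and the series' text names another compound where the labels name erlotinib. Barcodes of 27 bases are not the layout of the 10x Genomics kit that the labels' protocols name, and what 1 barcode tags is not settled here. Libraries held 3656549 to 5301915 UMIs.

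The mouse part of a barcode was kept with at least 500 mouse UMIs, at least 250 mouse genes and at most 25% mitochondrial UMIs, and the rule was then applied. UMIs were summed over members and divided by their mouse total (CPM). Genes were measured in a comparison when the mean of the libraries compared was at least 100 CPM. Past 1.5-fold refers to log2(CPM + 10), a scale on which low genes appear to change less. Ratios and their exact conditional binomial 95% intervals, and exact Clopper-Pearson intervals of shares, cover counting error only. With 1 library per group no test between treatments was made. A count of 0 UMIs allows up to 3, which is 5.75 to 10.4 CPM in members. It is more CPM in inflammatory fibroblast-like parts, whose summed UMIs were fewer in every library. Human UMIs of the same barcodes were summed per library and class of mouse part, 12 sums in all, and tested with edgeR's quasi-likelihood test (TMM, filterByExpr, library as block) at an adjusted p of 0.05. The scripts were tested on simulated data.

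Named genes were the genes of the rule, the 20 highest and 10 lowest against inflammatory fibroblast-like parts by the least extreme of the 4 library ratios, and the 10 highest and 10 lowest ratios of each treatment among genes with a UMI in at least 10% of members. For combination against each single drug 5 and 5 were named. Up to 4 genes per list followed, by level or ratio, and further list members named after their values were seen. The members and lists were chosen with earlier results of these data known. Alternatives covered the mitochondrial, UMI, collagen, C1q, Rgs5 and dividing limits, the pseudocount, the level filter, scaling, thinning, equal weight per part, DESeq2, and leaving out each library. Totals without mitochondrial genes, and members without the richest part of each library, were added after seeing the data. Python 3.11.15, numpy 2.4.6, scipy 1.17.1, pandas 2.3.3, matplotlib 3.10.9, R 4.3.3, edgeR 4.0.16 and DESeq2 1.42.0 were used. Mouse sequences were not used here. Some genes that the naming rule or the lists would give are not reported here.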

Additional observations from a re-analysis of the deposited data

Results flagged for a closer look

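For 6 genes named in members, the same treatment went the other way in another class of mouse parts of the same libraries, with counting intervals on opposite sides of 1. Each comparison sets 1 library against 1, so the difference between the classes was not tested across samples. Cxcl9 in erlotinib against control had a ratio of 6.08 in members and of 0.325 (0.132 to 0.827) in inflammatory fibroblast-like parts, which held 13 UMIs in erlotinib and 10 in control. Apod, a lipocalin of fibroblasts and nerve, had 3.95 in members and 0.589 (0.412 to 0.854) in inflammatory fibroblast-like parts. Thbs2 had 0.383 in members and 2.21 (1.01 to 5.73) in inflammatory fibroblast-like parts, on 62 UMIs in erlotinib and 7 in control. The control value of these parts comes from 9 parts.

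In combination against control the other class was C1q-high. Mmp13 had a ratio of 4.11 in members and of 0.313 (0.0913 to 0.867) in C1q-high parts, on 5 and 19 UMIs. Dusp4, a MAP kinase phosphatase, had a ratio of 3.003 in members and 0.425 (0.241 to 0.719) in C1q-high parts. Emp1 had 0.353 in members and 1.68 (1.399 to 2.02) in C1q-high parts.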

How the results depend on the processing

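The share of members stayed highest in control under 7 alternatives, thinning included, at 17.5% to 21.3% under agrimoniin, 17.4% to 20.7% under erlotinib and 21.7% to 29.4% under the combination, against 34.2% to 36.1% in control. Among fibroblast parts only it was 58.9%, 67.1% and 72.4%, against 88.8% in control. Counts of mouse genes past 1.5-fold moved by construction with the number of genes measured. With no filter beyond 1 UMI they were 1754 higher and 1400 lower in agrimoniin, 1637 and 1572 in erlotinib and 1414 and 1567 in combination against control, 1572 and 2071 in combination against agrimoniin and 1821 and 2023 against erlotinib. At a mean of at least 200 CPM they were 62 and 36, 37 and 72, 67 and 40, 46 and 42, and 89 and 40. Over the other alternatives the counts moved by less than 1.5 times. Of 989 list values 6 changed sign, and under the alternative each of them lay near 0 on the log2 scale. Median-of-ratios factors gave 0.013 for collagen processing and 0.028 for matricellular genes in erlotinib against control. Equal weight per part gave -0.099 for heat shock and immediate early genes in erlotinib against control and -0.0076 in combination against agrimoniin. Without the richest part the growth factor list was at -0.011 in agrimoniin against control, and the endothelial markers at 0.0031 in combination against agrimoniin. As reported, that endothelial ratio was 0.301 (0.169 to 0.510), a difference that was not kept without the richest parts. Of 640 named gene values 18 moved by more than their counting error, and 0 changed sign. Human gene calls depended on the fit, and the cause was not tested. Against inflammatory parts there were 7 higher and 10 lower with no filter, 1 and 1 with DESeq2, and 1 and 1 with only the 2 classes in the fit. With the stricter dividing line 1 was lower, SERPINA3. Against C1q-high parts there were 2 higher and 7 lower with no filter, 2 and 5 with only the 2 classes, and 0 lower with DESeq2 or the stricter line. Without the library block 0 genes were lower in either contrast. With 1 library left out, 0 to 1 genes were higher and 0 to 4 lower against inflammatory parts, and 0 to 1 higher and 0 to 2 lower against C1q-high parts. Genes under 100 CPM rest on few UMIs per library, and their intervals are wide.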

Other observations

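Growth factor genes split between the 2 fibroblast-like classes, a description since the classes were drawn on mouse genes. Of 12 measured genes of the PDGF, FGF and IGF list, 5 were at least 1.5-fold higher in members in all 4 libraries and 4 were lower. The receptor Pdgfrb was at 159.8 to 232 CPM in members and 19.1 to 59.5 CPM in inflammatory fibroblast-like parts, while the receptor Pdgfra was at 126 to 180.2 CPM in members and 288 to 413 CPM in inflammatory fibroblast-like parts. Vegfa was at 807 to 1435 CPM in members and 21.7 to 546 CPM in inflammatory fibroblast-like parts. Igf1, the insulin-like growth factor of fibroblasts, was at 55.6 to 154 CPM in members and 278 to 760.2 CPM in inflammatory fibroblast-like parts, and its carrier Igfbp4 at 1039 to 1643 CPM in members and 1865 to 5299.7 CPM in inflammatory fibroblast-like parts. The 4 small leucine-rich proteoglycans lower in members were Dcn, Lum, Ogn and Prelp, and the 2 higher were Bgn and Aspn. Aspn (asporin), which binds TGF-beta, was at 641 to 1026 CPM in members and 188 to 396 CPM in inflammatory fibroblast-like parts, and Bgn (biglycan) at 3217 to 4190.1 CPM in members and 1520.4 to 2005 CPM in inflammatory fibroblast-like parts.

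The remaining genes of the dividing rule, as a description, also differed between libraries in members. Col8a1, a short-chain collagen, stood at 2373 CPM under agrimoniin, 1995 under erlotinib and 2383 under the combination, against 3318 CPM in control. C1qtnf3, a secreted C1q/TNF-related protein, stood at 603 CPM under agrimoniin, 411 under erlotinib and 646 under the combination, against 909 CPM in control. Control was highest for both genes.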
